A study of Mus musculus with 12 samples.

Results

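Notch signalling was described through 9 genes, chosen by name: the receptors Notch1, Notch2 and Notch3, the ligands Jag1, Jag2 and Dll1, and the targets Hes1, Hey1 and Nrarp. All 9 were found among the 55315 gene symbols kept from the deposited count table, and all 9 were among the 16677 genes with enough counts to be tested. RNA had been sequenced from epithelial cells sorted out of mouse skin at day 3 after wounding, in 12 libraries that form 4 groups of 3. The groups were A5-POS cells of RORgt-deficient mice, A5-NEG cells of RORgt-deficient mice, A5-POS cells of WT mice and A5-NEG cells of WT mice. A5-POS and A5-NEG stand for presence or absence of integrin alpha5. All cells were sorted as positive for Epcam and integrin alpha6 and negative for CD45, CD31 and CD117. The submitters place A5-POS cells in the migrating epithelial tongue and A5-NEG cells in the rest of the wound edge. RORgt is the transcription factor of lymphocytes that make IL-17, and the sample titles of the deficient mice name a GFP knock-in. A library held the cells of 2 or 3 pooled mice, taken from a ring of 0.25 mm of skin around the wound, so that no value belongs to a single mouse.

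In Notch signalling a ligand on one cell binds a receptor on its neighbour, the receptor is cut by proteases, and its freed inner part moves to the nucleus. There it joins RBPJ, the DNA-binding protein of the pathway, and Mastermind proteins, and switches on targets such as the HES and HEY repressors. In the epidermis the pathway is known for driving keratinocytes out of the basal layer into differentiation, with ligand and receptor levels that differ between layers. The questions the design put to these genes were whether they differ between the migrating tongue and the rest of the wound edge, and whether they differ between mice with and without RORgt.

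The libraries held 29293687 to 74563616 counts. Values below are CPM, counts scaled by the adjusted library total, and levels of different genes were compared only after division by exon length (CPM per kb). The sort marker Itga5, the gene of integrin alpha5, had 107, 122 and 137 CPM in A5-POS and 54, 61.2 and 47.4 CPM in A5-NEG cells of RORgt-deficient mice, and 85, 101 and 97.2 CPM in A5-POS and 51.9, 42.2 and 46.2 CPM in A5-NEG cells of WT mice, so that it followed the sort. Ptprc, the gene of CD45, had 3.32 to 6.4 CPM in A5-POS and 3.61 to 25.3 CPM in A5-NEG cells of RORgt-deficient mice. In WT mice Ptprc had 3.13 to 4.84 CPM in A5-POS and 2.74 to 39.2 CPM in A5-NEG cells. Pecam1, the gene of CD31, was highest in WT A5-POS library 1, at 17 CPM. Epcam averaged 705 and 797 CPM in A5-POS and A5-NEG cells of RORgt-deficient mice, and 520 and 746 CPM in those of WT mice. The libraries of a group are numbered 1 to 3, and libraries with the same number deviated together in all 4 groups. Each test was therefore run over the groups alone and again with this number as a term, called the replicate block below.

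By exon length, Jag2 had the highest mean level over the 12 libraries, with 38.0 ± 5.96 CPM per kb (SD, n = 12). Jag1 followed with 32.5 ± 7.4, Dll1 with 30.8 ± 11.4 and Hes1 with 30.5 ± 5.8 CPM per kb, and these neighbours did not differ by more than their spread. Nrarp had 16.1 ± 2.39, Notch1 15.6 ± 4.24, Notch3 12 ± 3.78 and Notch2 9.17 ± 2.86 CPM per kb, again with neighbours inside each other's spread. Hey1 was far below the rest, with 0.589 ± 0.166 CPM per kb and 49 to 111 counts in a library. The lengths are those of all annotated exons joined, so the order depends on that choice. Notch4 and Dll4, a receptor and a ligand best known from blood vessels, were scarce, with group means of 0.264 to 0.609 CPM for Notch4 and 0.291 to 0.911 CPM for Dll4.

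**Figure D1:**
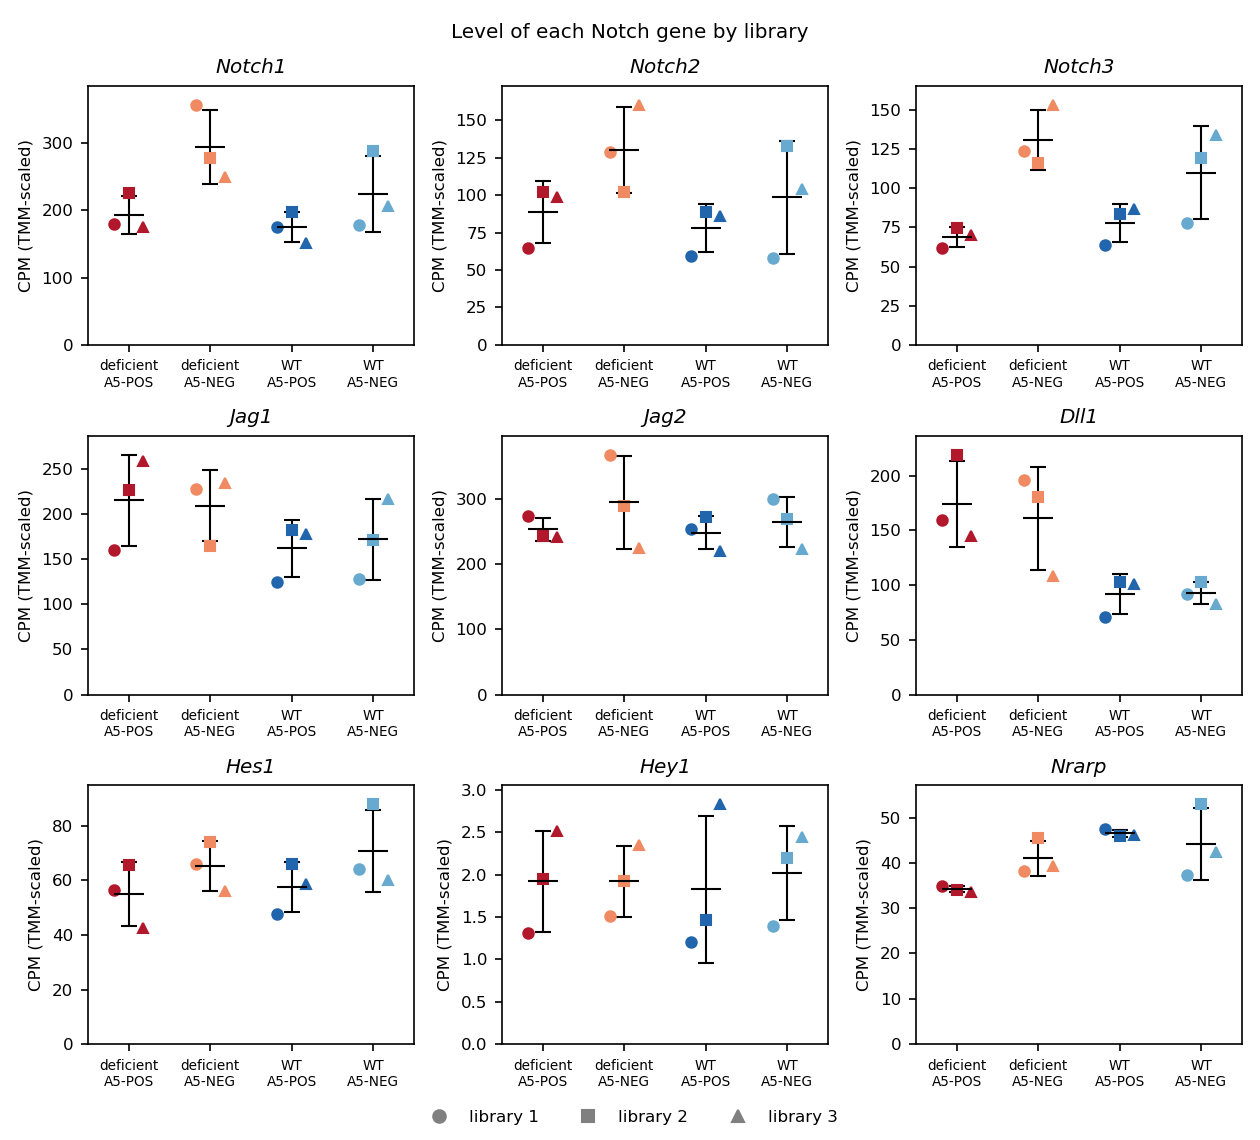
Level of each of the 9 genes in CPM (y axis, from 0), with 1 panel a gene and the 4 groups on the x axis (deficient stands for RORgt-deficient). Symbols are single libraries by number, and the black dash and bars are the mean ± SD of 3 libraries. Notch3 is lower in A5-POS than in A5-NEG cells of RORgt-deficient mice without overlap, and Dll1 is higher in RORgt-deficient than in WT libraries without overlap.

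The results turn on Notch3 and Dll1, and Nrarp is a feedback target whose A5-POS groups lay apart, so the 250 bases upstream of their annotated starts are shown. They come from RefSeq on GRCm38.p6 (7 of the 9 genes matched, with 8 windows), are written 5′ to 3′ along the gene, and capitals mark a CACGTG, the E-box bound by many helix-loop-helix proteins. Notch3 lies on the minus strand (chr17:32166891-32167140), Dll1 on the minus strand from the outer of its 2 starts (chr17:15376933-15377182), and Nrarp on the plus strand (chr2:25180508-25180757).
Notch3: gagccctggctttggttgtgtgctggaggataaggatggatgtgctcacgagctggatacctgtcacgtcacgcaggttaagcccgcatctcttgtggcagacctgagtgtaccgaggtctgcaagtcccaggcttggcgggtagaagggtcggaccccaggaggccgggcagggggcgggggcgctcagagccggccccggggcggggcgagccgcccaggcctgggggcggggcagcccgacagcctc
Dll1: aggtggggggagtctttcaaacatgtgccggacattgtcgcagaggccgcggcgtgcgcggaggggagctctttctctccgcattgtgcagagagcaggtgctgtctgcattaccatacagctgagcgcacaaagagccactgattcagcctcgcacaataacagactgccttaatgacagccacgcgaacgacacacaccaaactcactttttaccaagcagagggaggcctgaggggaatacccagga
Nrarp: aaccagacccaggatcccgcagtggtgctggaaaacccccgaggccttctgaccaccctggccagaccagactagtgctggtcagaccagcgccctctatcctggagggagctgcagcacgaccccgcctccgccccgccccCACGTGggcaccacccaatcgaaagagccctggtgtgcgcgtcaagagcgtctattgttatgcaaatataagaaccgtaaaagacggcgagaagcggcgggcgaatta
The E-box and the core motif of RBPJ were searched on both strands, and the outer 2 letters of one can be shared with the other. TGGGAA, the core bound by RBPJ, was in none of the 8 windows and was in 21.5% of the first windows of 27025 genes. That comparison took only the first window of a gene, where the 8 windows hold both starts of Dll1. Hes1 and Hey1 had no window, so these targets were not searched for either motif. CACGTG was in 1 window, that of Nrarp, 108 bases before the start, and in 6.05% of the genes' first windows. The Dll1 window overlaps an exon of A930024N18Rik, a noncoding gene on the other strand. The windows of Notch3, Dll1 and Nrarp held 68.8%, 56% and 61.2% G or C, where the median of all first windows was 52%.

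Of the receptors, Notch3 and Notch1 were lower in A5-POS than in A5-NEG cells. Notch3 (GRCm38 chromosome 17, 32120820 to 32166852), a receptor of suprabasal keratinocytes and of the cells around vessels, fell in A5-POS cells of RORgt-deficient mice to 68.9 ± 6.23 CPM, against 131 ± 19.2 CPM in their A5-NEG cells (SD, n = 3 each). Notch1 (chromosome 2, 26457903 to 26516663), the main receptor of epidermal differentiation, fell as a mean over both genotypes. Of the 9 genes, 1 fell in RORgt-deficient mice and 2 with the replicate block, where 0.965% of all tested genes fell and 7.54% with the block. Notch1, Notch3 and Nrarp lay below A5-NEG without overlap in these mice, as did 11.3% of all genes, and none of the 9 did in WT mice, against 9.11%. In WT mice none of the 9 passed, and 1 fell with the block, against 0.33% and 5.59% of all genes. In WT mice 1 of the 9 had an unadjusted p under 0.05, against 20.5% of all genes, and none passed by DESeq2, which called 8.7% of all genes. As a mean of both genotypes 2 of the 9 fell and 4 with the block, against 6.35% and 15.5% of all genes. The median change of the 9 was -0.25 in RORgt-deficient and -0.14 in WT mice on the log2 scale, where the medians of all tested genes were -0.00033 and 0.025.

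The 3 libraries of each group gave Notch3 levels of 62.1, 74.4 and 70.1 CPM in A5-POS and 124, 116 and 153 CPM in A5-NEG cells of RORgt-deficient mice. In WT mice they gave 63.7, 83.3 and 86.5 CPM in A5-POS and 77.5, 119 and 134 CPM in A5-NEG cells. The RORgt-deficient groups did not overlap, and the WT groups overlapped through A5-NEG library 1, which lay below 2 of the A5-POS libraries. Between libraries of the same number, A5-POS was below A5-NEG in 6 of 6 pairs, at 0.459 to 0.822 of the A5-NEG level. For this gene and those below, the share of all genes with every pair on the same side was not counted. The change in RORgt-deficient mice was -0.93 ± 0.20 on the log2 scale (SE, edgeR quasi-likelihood, adjusted p = 0.0183), and -0.92 ± 0.14 with the block (adjusted p = 0.00142). In WT mice it was -0.50 ± 0.20 (adjusted p = 0.18), and Notch3 fell with the block by 0.49 ± 0.14 on the log2 scale (adjusted p = 0.0369). The mean of both genotypes was -0.71 ± 0.14 (adjusted p = 0.00593), a call kept without each of the 12 libraries in turn (highest adjusted p = 0.0208). The call in RORgt-deficient mice ended without A5-POS library 1 (adjusted p = 0.0834) or 3 (0.0723) or A5-NEG library 3 (0.078). Under the block no left-out library ended it (highest 0.0122). The WT call with the block was kept without A5-NEG library 1 (adjusted p = 0.0253) and ended without A5-POS library 1 (0.123), 2 (0.0849) or 3 (0.0637) or A5-NEG library 2 (0.104) or 3 (0.148).

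Notch1 had 179, 226 and 175 CPM in A5-POS and 356, 277 and 249 CPM in A5-NEG cells of RORgt-deficient mice. In WT mice Notch1 had 175, 198 and 152 CPM in A5-POS and 178, 288 and 206 CPM in A5-NEG cells. The deficient groups did not overlap and the WT groups did, with A5-NEG library 1 at the level of the A5-POS libraries. All 6 pairs of the same number had less Notch1 in A5-POS cells, at 0.502 to 0.983 of the A5-NEG level. The mean change of both genotypes was -0.48 ± 0.14 (adjusted p = 0.0358, and 0.00715 with the block). In RORgt-deficient mice it was -0.61 ± 0.20 (adjusted p = 0.106), and Notch1 fell with the block by 0.62 ± 0.16 (adjusted p = 0.022). The mean call ended without A5-POS library 1 (0.0696) or 3 (0.0856) or A5-NEG library 1 (0.0709) of RORgt-deficient mice, and without A5-POS library 1 (0.0802) or 3 (0.071) or A5-NEG library 2 (0.0816) or 3 (0.0582) of WT mice. Under the block none of the 12 ended it (highest 0.0234). The blocked call in RORgt-deficient mice ended without A5-POS library 1 (0.0905) or 3 (0.0794) or A5-NEG library 1 (0.0749).

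Notch2 (chromosome 3, 98013527 to 98150361), a receptor also found across the epidermal layers, had 64.7, 102 and 99.0 CPM in A5-POS and 129, 102 and 160 CPM in A5-NEG cells of RORgt-deficient mice. In WT mice Notch2 had 59.4, 88.8 and 85.8 CPM in A5-POS and 58.3, 133 and 104 CPM in A5-NEG cells. The fractions overlapped in both genotypes, and 4 of 6 same-number pairs were lower in A5-POS cells. Its mean change was -0.45 ± 0.21 (adjusted p = 0.145), and it fell with the block by 0.45 ± 0.15 (adjusted p = 0.0362). The blocked call held when A5-POS library 2 (0.0425) or A5-NEG library 2 (0.00163) of RORgt-deficient mice or A5-NEG library 1 (0.0164) of WT mice was left out, and ended without each of the other 9 libraries (0.0617 to 0.122). Summed per kb, the 3 receptors had 26.2, 34.6 and 30.1 CPM per kb in A5-POS and 52.3, 43.3 and 51.2 CPM per kb in A5-NEG cells of RORgt-deficient mice. The sums in WT mice were 25.7, 32.4 and 29.4 CPM per kb in A5-POS and 27.5, 47.3 and 40.7 CPM per kb in A5-NEG cells.

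Several marker lists differed between the fractions along with the receptors. In bulk RNA of sorted pools, fewer cells of a type and less RNA per cell cannot be told apart. All 12 fibroblast markers rose in A5-POS cells as a mean of both genotypes, with a median change of 5.47 on the log2 scale. They summed to 11100 to 18000 CPM in A5-POS and 801 to 1850 CPM in A5-NEG cells of RORgt-deficient mice, and to 6400 to 9750 CPM in A5-POS and 1450 to 2130 CPM in A5-NEG cells of WT mice. The summed level of 10 genes of differentiating keratinocytes was lower in A5-POS cells in each same-number pair. It was 3990 to 6150 CPM in A5-POS and 7650 to 10600 CPM in A5-NEG cells of RORgt-deficient mice, and 4710 to 10800 CPM in A5-POS and 6480 to 12000 CPM in A5-NEG cells of WT mice. Krt1 and Krt10 made up 79.5 to 87.3% of these sums, and as a mean of both genotypes 6 of the 10 genes lay below 0 and 4 above it. None of the 10 was at 0 in any library. Basal keratinocyte markers (8 genes) summed to 35200 to 52300 CPM in A5-POS and 26300 to 39200 CPM in A5-NEG cells of RORgt-deficient mice. In WT mice they summed to 42500 to 75200 CPM in A5-POS and 27100 to 40600 CPM in A5-NEG cells. As a mean of both genotypes 5 of the 8 lay above 0 and 3 below it. The part of these lists in the receptor changes was not tested. Notch3 is also known in pericytes and smooth muscle. Their markers summed to 149 to 205 CPM in A5-POS and 58 to 100 CPM in A5-NEG cells of RORgt-deficient mice. In WT mice the sums were 108 to 122 CPM in A5-POS and 62.8 to 74.8 CPM in A5-NEG cells. All 10 markers had a change above 0 in RORgt-deficient mice, and 6 lay above and 4 below 0 in WT mice. Pdgfrb, which fibroblasts also express, averaged 64.7 CPM in A5-POS and 1.3 CPM in A5-NEG cells of RORgt-deficient mice. Without it the sums were 94.3 to 129 CPM in A5-POS and 57.5 to 97 CPM in A5-NEG cells of these mice, and 70.7 to 102 CPM in A5-POS and 62.1 to 74.6 CPM in A5-NEG cells of WT mice. Of the 10 markers, 0 to 4 were at 0 in a library, and Rgs5, a defining pericyte gene, had group means of 0.425 to 3.02 CPM. Macrophage markers (10 genes, none at 0) summed to 69.1 to 170 CPM in the A5-POS libraries and to 70.1 to 470 CPM in the A5-NEG libraries other than WT library 1, which had 1110 CPM. Langerhans and dendritic cell markers (8 genes, none at 0) summed to 438 to 928 CPM in A5-POS and 320 to 1150 CPM in A5-NEG cells of RORgt-deficient mice. In WT mice they summed to 329 to 1020 CPM in A5-POS cells, and to 320 and 756 CPM in A5-NEG cells beside the 3360 CPM of library 1. Without that library Notch3 changed in WT mice by -0.70 (adjusted p = 0.0621), and by -0.63 with the block (adjusted p = 0.0253).

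The receptor genes are long, with 14232, 10782 and 8089 bases of exon for Notch1, Notch2 and Notch3. The 2477 tested genes of 8000 bases or more had a median change of -0.13 as a mean of both genotypes, and 10.8% of them fell. With the trend on exon length taken out of each library, Notch3 still fell by 0.65 on the log2 scale (adjusted p = 0.0049) and Notch1 by 0.30 (adjusted p = 0.0487). Notch2 then had -0.33, and its call with the block ended (adjusted p = 0.06).

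**Figure D2:**
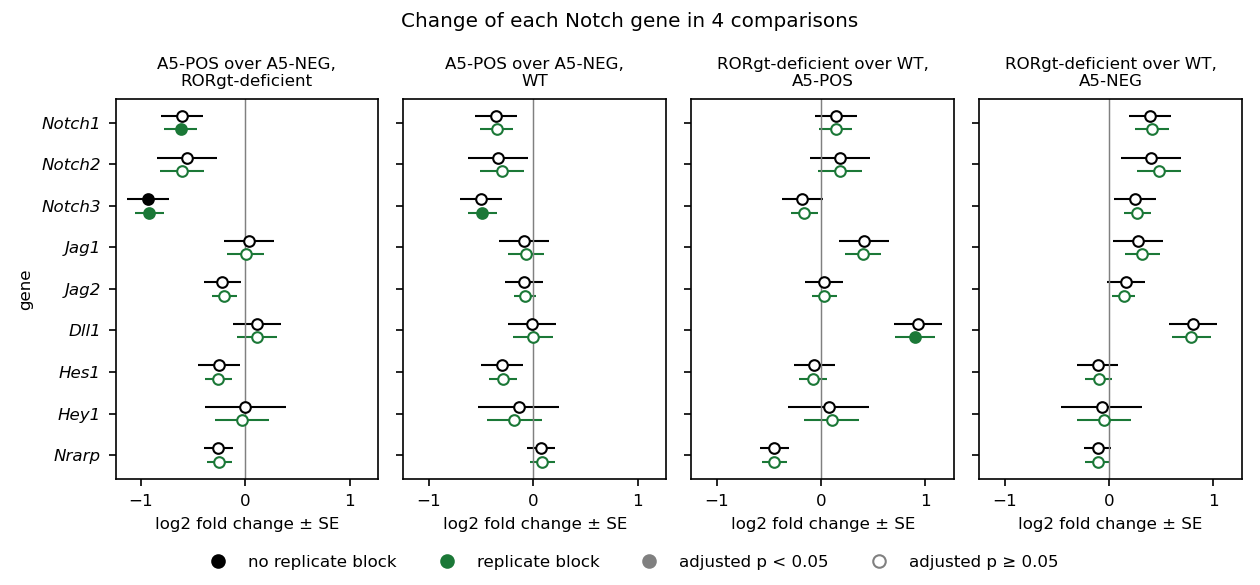
Change of each of the 9 genes as log2 fold change ± SE (x axis) in 4 comparisons, without the replicate block in black and with it in green. Filled symbols have an adjusted p under 0.05 in edgeR's quasi-likelihood test. Notch3 and Notch1 lie left of 0 in both panels of the fractions, and Dll1 lies right of 0 in both panels of the genotypes.

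None of the 3 ligands passed the test between fractions. Jag1 (chromosome 2, 137081456 to 137116644), a ligand of suprabasal epidermis and hair follicle, had 160, 226 and 259 CPM in A5-POS and 228, 164 and 234 CPM in A5-NEG cells of RORgt-deficient mice, and 125, 182 and 178 CPM in A5-POS and 128, 171 and 217 CPM in A5-NEG cells of WT mice. Jag2 (chromosome 12, 112907819 to 112929776), a ligand known from the basal layer, had 273, 243 and 241 CPM in A5-POS and 367, 289 and 225 CPM in A5-NEG cells of RORgt-deficient mice. Jag2 had 253, 271 and 220 CPM in A5-POS and 300, 269 and 223 CPM in A5-NEG cells of WT mice. For both genes the fractions overlapped in each genotype. The same-number pairs split 3 to 3 for Jag1, and 4 of 6 were lower in A5-POS cells for Jag2. Neither passed the test in any comparison with or without the block (lowest adjusted p = 0.189, for Jag1 between genotypes in A5-POS cells with the block).

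Dll1 levels were higher in RORgt-deficient than in WT libraries, and here the fractions did not differ beyond their spread. In edgeR's test this genotype change passed only in A5-POS cells and only with the block. Dll1 (chromosome 17, 15367354 to 15376872) encodes a ligand that in the epidermis is known from basal cells. It had 159, 219 and 145 CPM in A5-POS cells of RORgt-deficient mice and 70.9, 103 and 101 CPM in A5-POS cells of WT mice. In A5-NEG cells it had 196, 180 and 108 CPM in RORgt-deficient and 91.9, 103 and 83 CPM in WT mice. All 6 deficient libraries, at 108 to 219 CPM, lay above all 6 WT libraries, at 70.9 to 103 CPM, as for 0.498% of all tested genes, and the same-number ratios were 1.30 to 2.25. Of the 9 genes, Dll1 alone lay above WT without overlap in both fractions, where 9.04% of all tested genes did so in A5-POS cells, 7.33% in A5-NEG cells and 1.98% in both.

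The change of Dll1 in A5-POS cells was 0.93 ± 0.23 on the log2 scale, or 1.90-fold (adjusted p = 0.178), and under the block Dll1 rose by 0.90 ± 0.19 (0.0393). In A5-NEG cells it was 0.80 ± 0.23, or 1.74-fold (adjusted p = 0.779, and 0.157 with the block). The call was 1 of 9 genes with the block and none without it, where 2.26% of all genes rose with the block and 0.006% passed in either direction without it. At an unadjusted p under 0.05, 2 of the 9 genes stood in A5-POS cells (Dll1 and Nrarp), against 15% of all genes, and 1 in A5-NEG cells (Dll1), against 5.09%. In A5-NEG cells 0.006% of all genes passed with the block or without it. By DESeq2 1 of the 9, Dll1, passed in A5-POS cells (adjusted p = 0.0193), where 1.39% of all genes rose, and none in A5-NEG cells, where it called 0.126%. The call with the block was kept without WT A5-POS library 3 (0.0225). It ended without A5-POS library 1 (0.071), 2 (0.144) or 3 (0.0821) of RORgt-deficient mice or A5-POS library 1 (0.165) or 2 (0.135) of WT mice. The difference of the genotype effect between fractions was 0.13 ± 0.33 (adjusted p = 1).

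Fibroblast markers, genes of dermal cells, were set beside Dll1. The sum of 12 markers was 11100 to 18000 CPM in A5-POS cells of RORgt-deficient and 6400 to 9750 CPM in A5-POS cells of WT mice. In A5-NEG cells it was 801 to 1850 CPM in RORgt-deficient and 1450 to 2130 CPM in WT mice. Postn alone made up 72.1 to 92.7% of the sum in deficient and 84.2 to 96.1% in WT A5-NEG libraries, and without it the sums were 58.8 to 516 CPM in deficient and 83 to 228 CPM in WT libraries and overlapped. Of the 12 markers, 11 had a genotype change above 0 in A5-POS cells, and 6 lay above and 6 below 0 in A5-NEG cells. Pdgfra, a defining fibroblast gene, averaged 1.27 CPM in deficient and 0.693 CPM in WT A5-NEG cells, without overlap, but did not pass (adjusted p = 0.779), and it was chosen after its values were seen. No library had more than 1 of the 12 markers at 0, and their part in the Dll1 result was not tested. Endothelial markers, another source of Notch ligands, summed to 3.21 to 12.5 CPM in the deficient and 3.45 to 64.1 CPM in the WT libraries. The high WT sums were those of A5-POS library 1 (64.1 CPM) and A5-NEG library 1 (21.5 CPM). The other WT libraries had 3.45 to 6.27 CPM. Pecam1, which defines these cells, had group means of 1.38 to 6.21 CPM.

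As a share of the 3 ligands summed per kb, Dll1 made up 36.2, 41.3 and 30.3% in A5-POS cells of RORgt-deficient mice and 22.5, 25.9 and 27.8% in A5-POS cells of WT mice. In A5-NEG cells it made up 33.6, 37.9 and 26.1% in RORgt-deficient and 25.1, 26.4 and 22.1% in WT mice. The A5-POS groups did not overlap, and the A5-NEG groups overlapped through deficient library 3. By mean level per kb, Dll1 stood at 41.3 ± 9.27 and Jag2 at 36.3 ± 2.55 CPM per kb in A5-POS cells of RORgt-deficient mice, an order within the spread. In A5-POS cells of WT mice Dll1 stood at 21.8 ± 4.3 and Jag2 at 35.6 ± 3.71 CPM per kb (SD, n = 3 each). The 3 ligands together had 114 ± 10.6 CPM per kb in A5-POS cells of RORgt-deficient and 85.2 ± 10 CPM per kb in those of WT mice.

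**Figure D3:**
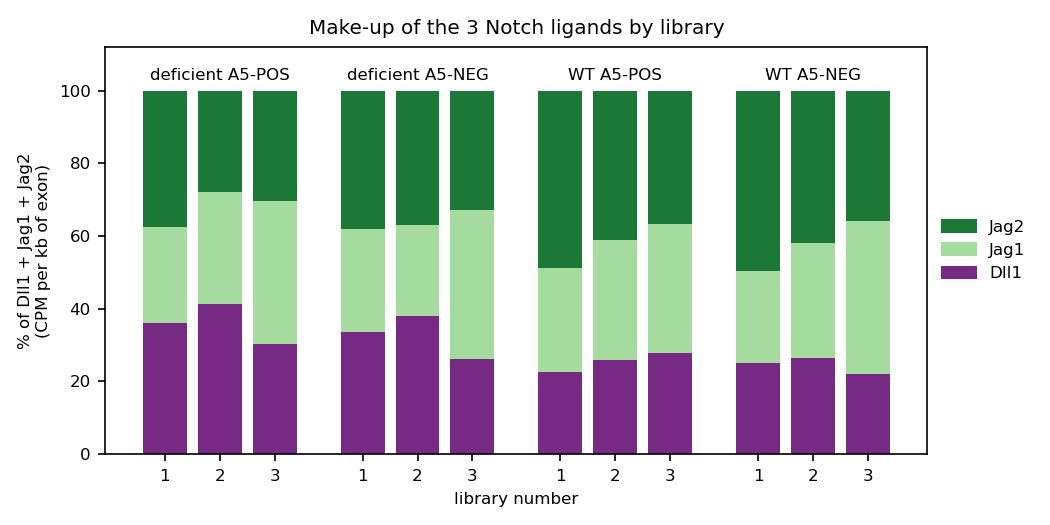
Share of Dll1, Jag1 and Jag2 in the sum of the 3 ligands, in percent of CPM per kb of exon (y axis), with 1 bar a library (x axis) in each of the 4 groups (deficient stands for RORgt-deficient). The Dll1 share is 30.3 to 41.3% in A5-POS cells of RORgt-deficient mice and 22.5 to 27.8% in A5-POS cells of WT mice.

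Of the targets, Hes1 (chromosome 16, 30064384 to 30067796), a repressor switched on by Notch that keeps suprabasal cells from maturing early, was lower in A5-POS cells in every same-number pair. It had 56.4, 65.8 and 42.6 CPM in A5-POS and 66.0, 74.2 and 56.0 CPM in A5-NEG cells of RORgt-deficient mice. In WT mice Hes1 had 47.7, 66.0 and 58.8 CPM in A5-POS and 64.2, 87.9 and 60.3 CPM in A5-NEG cells. The fractions overlapped in both genotypes, and the same-number pairs stood at 0.743 to 0.975 of the A5-NEG level. How common such a run of pairs is among all genes was not counted. The mean change was -0.28 ± 0.14 (adjusted p = 0.185), and Hes1 fell with the block by 0.27 ± 0.09 (adjusted p = 0.0367). The Hes1 call held when A5-POS library 1 (0.0246) or 2 (0.037) or A5-NEG library 2 (0.0299) or 3 (0.0441) of RORgt-deficient mice or A5-POS library 3 (0.00681) of WT mice was left out, and ended without each of the other 7 libraries (0.0544 to 0.117).

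Nrarp (chromosome 2, 25180758 to 25183339), a target that dampens Notch signalling, had 35.0, 34.0 and 33.6 CPM in A5-POS cells of RORgt-deficient mice and 47.5, 45.9 and 46.2 CPM in A5-POS cells of WT mice. In A5-NEG cells it had 38.2, 45.4 and 39.3 CPM in RORgt-deficient and 37.3, 52.9 and 42.4 CPM in WT mice. The A5-POS groups lay apart, as for 9.01% of all genes in this direction, and the A5-NEG groups overlapped. The change of Nrarp in A5-POS cells was -0.45 ± 0.14 (adjusted p = 0.207, and 0.0598 with the block). Its exons share 2051 bases with the antisense gene Gm38287, and the strand setting of the counting is not given in the sources used here, so reads of the pair cannot be told apart. The same holds for Notch1 with 0610009E02Rik (1068 bases) and Gm13568 (414 bases), Notch3 with Gm17276 (488 bases) and Dll1 with A930024N18Rik (867 bases). Notch2 shares 541 bases with Gm42820, a gene on its own strand, so the strand would not part these reads. Of the pathway genes described below, Aph1a shares 445 bases with Car14, Dtx3l 458 bases with Parp9, and some others fewer. Hey1 (chromosome 3, 8663359 to 8667256), another repressor downstream of Notch, had 1.31 to 2.51 CPM in deficient and 1.21 to 2.83 CPM in WT A5-POS libraries, and 1.51 to 2.35 CPM in deficient and 1.40 to 2.45 CPM in WT A5-NEG libraries. The same-number pairs of Hey1 split 3 to 3 between fractions and between genotypes.

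**Figure D4:**
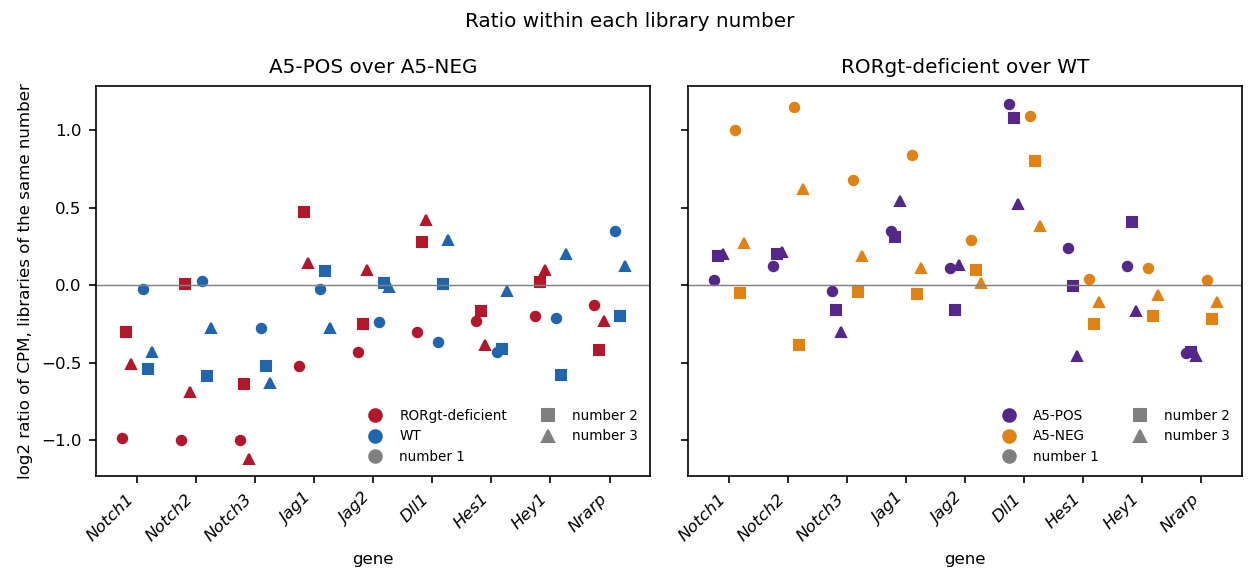
Log2 ratio of CPM between libraries of the same number (y axis) for each gene (x axis), with A5-POS over A5-NEG on the left and RORgt-deficient over WT on the right; symbols give the number and colours the genotype or fraction held fixed. On the left all 6 points of Notch1, Notch3 and Hes1 lie below 0, and on the right all 6 points of Dll1 lie above 0. The share of all genes with 6 points on the same side was not counted.

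None of the 9 genes passed the test for a different A5 effect in the 2 genotypes, with the block or without it, and 0% of all genes did. At an unadjusted p under 0.05 the fit without the block had 0 of the 9 and 2.75% of all genes, and DESeq2 called 0 of the 9 and 0.0481% of all genes. The difference was -0.42 ± 0.28 for Notch3 (adjusted p = 1, unadjusted p = 0.158, and 0.0422 with the block, where the adjusted p was 0.914) and -0.33 ± 0.19 for Nrarp (unadjusted p = 0.106). The lower Notch3 in A5-POS cells is therefore not shown to differ between RORgt-deficient and WT mice.

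Of 53 other genes of the pathway, 47 could be tested. As a mean of both genotypes 1 rose and 2 fell, and with the block 3 rose and 12 fell, where 11.9% and 18.5% of all genes rose and 6.35% and 15.5% fell. Their median change was -0.11, against 0.007 for all tested genes. By genotype, 1 rose in WT and 1 fell in RORgt-deficient mice, and with the block 2 rose and 5 fell in WT and 6 fell in RORgt-deficient mice. The shares of all genes that rose in WT mice were 3.12% and 8.76% with the block. The shares that fell were 0.33% and 5.59% with the block in WT mice, and 0.965% and 7.54% in RORgt-deficient mice. Between genotypes none passed without the block, and with it 1 rose and 2 fell in A5-POS cells, where 2.26% of all genes rose and 1.76% fell.

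In the nuclear complex 2 of 8 genes fell between fractions as a mean of both genotypes, and 5 with the block, against 6.35% and 15.5% of all genes. Spen, a corepressor that binds RBPJ, had 37.3, 24.1 and 32.0 CPM in A5-POS and 60.6, 46.8 and 56.8 CPM in A5-NEG cells of RORgt-deficient mice, and 38.2, 34.4 and 26.9 CPM in A5-POS and 54.3, 45.3 and 44.0 CPM in A5-NEG cells of WT mice. All 6 A5-POS libraries lay below all 6 A5-NEG libraries, as for 1.34% of all genes. Its mean change was -0.67 ± 0.13 (adjusted p = 0.0057), kept without each of the 12 libraries (highest 0.0162), and with the length trend removed the call ended (adjusted p = 0.0622). In RORgt-deficient mice alone it was -0.81 ± 0.19 (adjusted p = 0.0246), a call that ended without A5-POS library 3 (0.087) or A5-NEG library 1 (0.0854) or 3 (0.078). It also ended with the length trend removed (0.2) or with the 6 compared libraries alone (0.0548).

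Maml1, a Mastermind coactivator, had a mean change of -0.41 ± 0.11 (adjusted p = 0.027, and 0.00828 with the block). Without the block its call ended without A5-POS library 1 (0.0511) or 3 (0.0662) of RORgt-deficient mice and without A5-POS library 1 (0.0785) or 3 (0.0557) or A5-NEG library 3 (0.0723) of WT mice, and with no filter on low counts (0.0566). Maml3, another Mastermind, fell with the block by 0.45 ± 0.11 on the log2 scale (adjusted p = 0.0104). Rbpj itself had 33.1, 50.7 and 40.0 CPM in A5-POS and 44.6, 51.0 and 42.3 CPM in A5-NEG cells of RORgt-deficient mice. In WT mice Rbpj had 21.5, 36.8 and 25.9 CPM in A5-POS and 31.6, 44.0 and 38.3 CPM in A5-NEG cells. It fell with the block by 0.32 ± 0.085 as a mean of both genotypes (adjusted p = 0.0148), and between genotypes in A5-POS cells Rbpj was higher under the block by 0.57 ± 0.12 (adjusted p = 0.0391). The blocked mean call of Rbpj ended without WT A5-NEG library 3 (0.0507), and its genotype call ended without each of the 6 A5-POS libraries (0.0587 to 0.165). With the length trend removed as well, the blocked mean call of Rbpj ended (0.0821). No left-out library ended the blocked call of Maml3 (highest 0.0356).

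Among the Fringe enzymes, which add sugars to the receptors and shift which ligand they answer to, Rfng was higher in A5-POS than in A5-NEG cells of WT mice. Rfng had 52.5, 38.7 and 36.2 CPM in A5-POS and 38.6, 41.0 and 37.7 CPM in A5-NEG cells of RORgt-deficient mice. In WT mice it had 78.6, 65.1 and 52.2 CPM in A5-POS and 39.4, 43.2 and 36.2 CPM in A5-NEG cells. The WT groups did not overlap, as for 15.9% of all genes in this direction, and the deficient groups did. Rfng rose in WT mice by 0.72 ± 0.17 (adjusted p = 0.0438, and 0.00807 with the block), and as a mean by 0.42 ± 0.12 (adjusted p = 0.0354). The WT call was kept without A5-POS library 3 (0.0257) and ended without A5-POS library 1 (0.179) or 2 (0.092) or A5-NEG library 1 (0.101), 2 (0.08) or 3 (0.185), while under the block no left-out library ended it (highest 0.0473). It ended with RLE factors (0.0509) or with the 6 compared libraries alone (0.0894). The mean call ended without A5-POS library 1 (0.108) or A5-NEG library 1 (0.09), 2 (0.0743) or 3 (0.0888) of RORgt-deficient mice, without A5-POS library 1 (0.076) or A5-NEG library 1 (0.0548) or 3 (0.0801) of WT mice, and with the length trend removed (0.0623). Under the block no left-out library ended it (highest 0.0291). Between genotypes in A5-POS cells Rfng fell with the block by 0.62 ± 0.13 (adjusted p = 0.0393), a call that held when WT A5-POS library 3 was left out (0.035) and ended without each of the other 5 A5-POS libraries (0.0584 to 0.162). Lfng, the Fringe best known in Notch signalling, fell with the block by 0.36 ± 0.11 as a mean (adjusted p = 0.0323). Its call held when A5-POS library 2 (0.0236) or A5-NEG library 1 (0.0475) or 3 (0.038) of RORgt-deficient mice or A5-POS library 3 (0.0395) or A5-NEG library 2 (0.0166) of WT mice was left out, and ended without each of the other 7 (0.0547 to 0.115).

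In the group for endocytosis and ubiquitin, Numb, an adaptor that removes receptors from the surface, fell with the block by 0.46 ± 0.079 as a mean of both genotypes (adjusted p = 0.00177, and 0.0601 without it). On the same measure Fbxw7, which marks the cut receptor for destruction, fell with the block by 0.28 ± 0.077 (adjusted p = 0.0169), and Dtx3l, a Deltex-like ubiquitin ligase, rose with it by 0.38 ± 0.12 (adjusted p = 0.0339). The noncanonical ligand gene Dlk2 rose with the block by 0.32 ± 0.10 (adjusted p = 0.0326). No left-out library ended the blocked call of Numb. That of Fbxw7 ended without A5-POS library 3 of RORgt-deficient mice (0.0552) or A5-NEG library 3 of WT mice (0.0522). That of Dtx3l held without A5-NEG library 3 of RORgt-deficient mice (0.0185) or A5-POS library 3 (0.0261) or A5-NEG library 2 (0.0275) of WT mice, and ended without each of the other 9 (0.0501 to 0.103). That of Dlk2 held without A5-POS library 2 (0.0461) or A5-NEG library 2 (0.0327) of RORgt-deficient mice or A5-NEG library 1 of WT mice (0.0151), and ended without each of the other 9 (0.0502 to 0.11) and with the length trend removed (0.0664). Of the proteases and their partners, Aph1a, a subunit of the gamma-secretase that cuts the receptors, had 18.2, 16.9 and 15.3 CPM in A5-POS cells of RORgt-deficient mice and 36.6, 22.5 and 29.4 CPM in A5-POS cells of WT mice. These did not overlap, as for 9.01% of all genes in this direction. Aph1a fell between genotypes with the block by 0.79 ± 0.20 (adjusted p = 0.0498), a call that ended without each of the 6 libraries (0.102 to 0.216). In A5-NEG cells Aph1a had 15.2, 19.1 and 18.4 CPM in RORgt-deficient and 35.5, 20.1 and 26.1 CPM in WT mice, again without overlap, as for 8.26% of all genes in this direction.

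Of the 6 epidermal genes known to lie downstream of Notch, all 6 had a mean change below 0 between fractions, as did 8232 of the 16677 genes tested. With the block 3 of the 6 fell and without it none, against 15.5% and 6.35% of all genes. Krt10, a keratin of the suprabasal layers, fell with the block by 0.88 ± 0.15 as a mean (adjusted p = 0.0017, and 0.0532 without it). Ivl, which encodes the envelope protein involucrin, fell with it by 0.70 ± 0.14 (adjusted p = 0.00312). No left-out library ended the blocked calls of Krt10 and Ivl. Other HES and HEY genes were scarce, with 3 of 6 tested and none passing, and group means of 6.79 to 8.79 CPM for Hes6 and 0.388 to 1.1 CPM for Heyl.

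**Figure D5:**
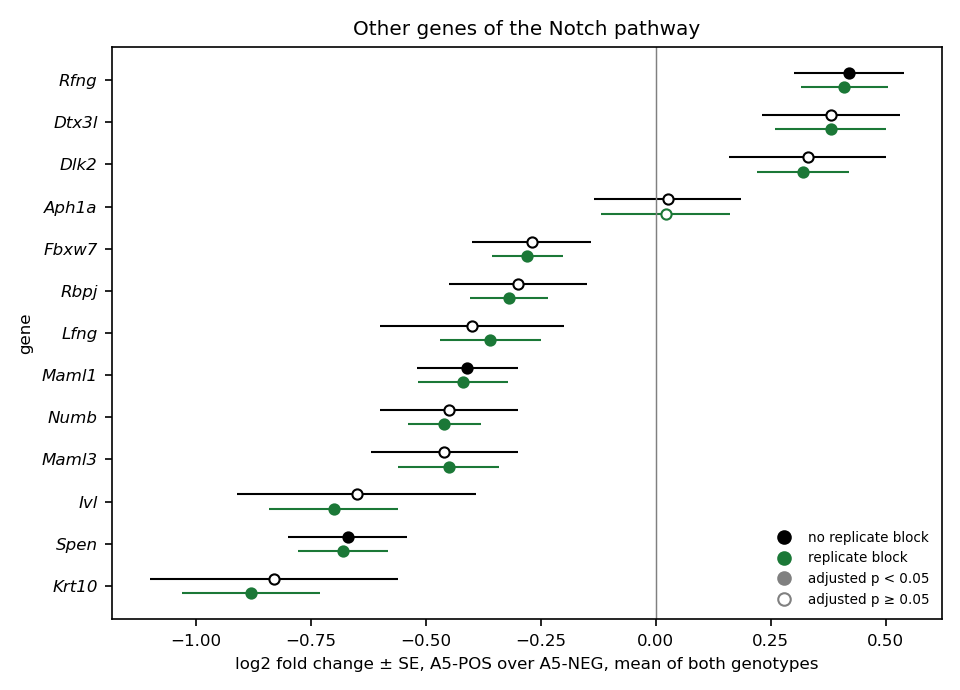
Change of the pathway genes described beside the 9 (y axis), as log2 fold change ± SE of A5-POS over A5-NEG as a mean of both genotypes (x axis), without the replicate block in black and with it in green. Filled symbols have an adjusted p under 0.05. Spen, Maml1 and Rfng are filled in both fits, and Aph1a in neither, since it passed between genotypes.

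The genes most like each member over the 12 libraries were found among 9070 genes by the root mean square difference of centred log2 CPM. Notch3 was followed most closely by Ppl, which encodes the cornified envelope protein periplakin, at 0.12, and by Acsl1 and Grhl1, both at 0.13, where Notch3 itself varied with an SD of 0.45. Notch1 was followed by Kat6b at 0.088, Son at 0.094 and Cnst at 0.10, with an SD of 0.37. Dll1 was followed by Epgn, the gene of the growth factor epigen, at 0.18, and by Pmp22 and F2r at 0.19, with an SD of 0.52. For Notch2 the nearest were Lmtk2, Edem3 and Tet3, all at 0.17, and for Hes1 Pnpla6 at 0.13 with Zcchc7 and Atp6v1a at 0.14. These distances are a description over libraries that share depth, number and sort.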

How the data were processed

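Per the labels, libraries were made with SMART-Seq v4 and ThruPLEX, and bcl2fastq, Trimmomatic 0.36, STAR and featureCounts on mm10 (GRCm38) were used, per the submitters' processing notes. The authors deposited raw counts per gene symbol, per the file headers; for the annotation release, the strand setting and multiply matching reads nothing is given in the sources used here. Of 55341 rows, 26 with symbols turned into dates (0.110 to 0.128% of counts) were left out. Positions and exon lengths are from GENCODE M21.

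Counts were fitted with edgeR 4.0.16 in R 4.3.3 (TMM factors 0.919 to 1.08, 16677 genes kept by filterByExpr, 1 model of 4 groups over 12 libraries, quasi-likelihood F test, Benjamini-Hochberg adjustment over all genes, threshold 0.05). The SE is the change over the root of F. Residuals over 9071 genes correlated at 0.153 to 0.722 (median 0.452) in the 18 pairs of same-number libraries. In the 36 other pairs they correlated at -0.63 to 0.315 (median -0.238), so the ranges overlapped. The numbers were used to pair the libraries on this ground, and the blocked value is given where it changes a call. Alternatives were RLE factors, DESeq2 1.42.0, no filter, a filter of CPM 5 in 3 libraries, blocks, fits to the 6 compared libraries, and the loss of each library in turn. Removal of the exon length trend, and DESeq2 with the block, were chosen after seeing the data. The fit was tested on simulated data. The p-values rest on variation between pooled samples.

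The 9 genes, the 53 pathway genes and the marker lists were chosen with earlier results of these data known. Named were the 9 in every comparison, up to 15 pathway genes with the smallest p among those past the threshold in any comparison with or without the block, with Rbpj and Lfng in any case, and the 3 genes most like each member that passed (mean log2 CPM of at least 3, prior count 2). Notch4, Dll4, Hes6 and Heyl were named after their values were seen. Some genes that the rule names, and the gene targeted in the deficient mice, are not reported here. Within groups no libraries were alike to within counting error.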

Additional observations from a re-analysis of the deposited data

How the results depend on the processing

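No fold change of the 9 genes that passed with or without the block turned its direction under any alternative. The count of the 9 past the threshold was 0 between fractions in WT mice and 1 with the replicate block, with the block by genotype and number, with length trend and block together, or with DESeq2 and block. In RORgt-deficient mice it was 1, then 2 with the replicate block, with the block by genotype and number or with length trend and block, and 3 with DESeq2 and block. As a mean of both genotypes it was 2, then 4 with either block or with DESeq2 and block. Between genotypes in A5-POS cells it was 0, then 1 with the block, by DESeq2 or with length trend and block, and 2 with DESeq2 and block. In A5-NEG cells it was 0, and 1 with DESeq2 and block. The block changed no other call among the 9 genes. The cause of these shifts was not tested. Leaving out each library, with or without the block, the counts ran from 0 to 3 in RORgt-deficient mice, 0 to 1 in WT mice, 1 to 4 as a mean, and 0 to 1 between genotypes in A5-POS cells. The difference of the Dll1 genotype effect between fractions ran from -0.063 to 0.45. Of the other pathway genes, 3 passed as a mean and 15 with the block, 1 and 7 in WT, 1 and 6 in RORgt-deficient mice, and 0 and 3 between genotypes in A5-POS cells. Over all tested genes 1980 rose and 1059 fell as a mean, and 3082 rose and 2579 fell with the block; between genotypes in A5-POS cells 1 rose, and 377 rose and 293 fell with the block. Levels of the 9 genes in plain CPM of the total kept within 1 SD. Hey1, at 49 to 111 counts, is the gene that depth limits most.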
